A study of Mus musculus with 3 samples.

Results

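Collagens are the rod-shaped proteins that give tissues tensile strength. The collagen genes were taken as every counted gene whose symbol is Col, a number, the letter a and a further number, which gave 43 of the 17992 genes in the count tables. They were measured by RNA sequencing of brain from adult wild-type C57BL/6 mice, in 3 libraries, each the only one of its group. The AGNHW library came from mice given AGNHW, a preparation that the labels name but do not describe, at 3 mg per g per day. The vehicle library came from the middle cerebral artery occlusion model, in which a main artery of the brain is blocked to produce a stroke, and the sham library from sham mice. The labels state the occlusion for vehicle mice and do not repeat it for AGNHW mice. The brain region sampled, the time after occlusion and the number of mice behind each library are not stated in the labels.

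A collagen molecule is 3 chains wound into a triple helix, and the chains are encoded by separate genes. The fibrillar collagens build the strong fibrils of connective tissue, collagen IV forms the sheet-like network of basement membranes, collagen VI forms beaded filaments around cells, and fibril-associated collagens sit on the surface of fibrils. In brain, collagen is concentrated in the meninges and in the walls of blood vessels, where fibroblasts, endothelial cells and mural cells make it, while a few collagens are made by neurons.

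With 1 library per group there was no test between the conditions and no p-value. Levels are in CPM, read counts divided by the size of the library, here after scaling with TMM factors, which correct for differences in library composition. Intervals are 95% intervals that cover counting error only, so they say nothing about the spread between mice. A gene was called higher or lower when its CPM ratio was at least 1.5 in that direction, the interval of the ratio did not include 1, and its mean over the 3 libraries was at least 1 CPM. In all, 15558 genes and 39 of the 43 collagens reached that mean. The other 4 collagens (Col4a3, Col6a6, Col9a1 and Col28a1) had between 4 and 20 counts in each library, and no collagen was at 0 in any library. Library totals were 18184691 counts for AGNHW, 15718594 for vehicle and 18286151 for sham.

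The summed collagen level was nearly the same in the 3 libraries. It was 633 CPM (interval 622 to 645) in AGNHW, 625 CPM (613 to 638) in vehicle and 623 CPM (612 to 634) in sham. The vehicle sum was 1.0 times the sham sum (0.977 to 1.03), and the AGNHW sum was 1.01 times the vehicle sum (0.985 to 1.04). Col6a1 and Col4a2, the most abundant members in every library, together held 36.5% of the summed collagen CPM in AGNHW, 39% in vehicle and 33.7% in sham. Single members ranged from 0.438 to 137 CPM in AGNHW, from 0.263 to 141 CPM in vehicle and from 0.372 to 114 CPM in sham.

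**Figure D1:**
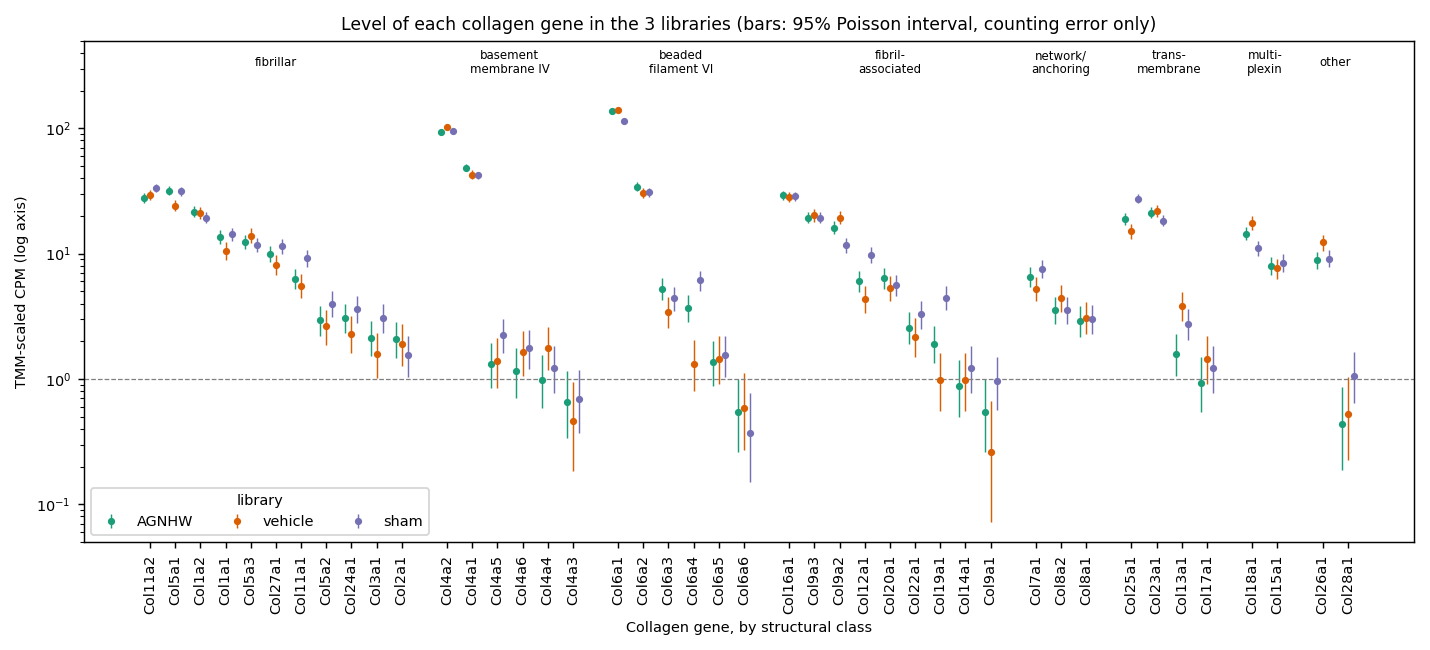
Level of each of the 43 collagen genes in the AGNHW, vehicle and sham libraries, in TMM-scaled CPM on a log axis, ordered by structural class, with 95% Poisson intervals for counting error. Col6a1 and Col4a2 lie at the top in all 3 libraries, and Col6a4, Col19a1 and Col12a1 are the members whose vehicle point lies farthest below the sham point among the 39 compared.

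Single members differed more than the sums, whose largest ratio was 1.02, for AGNHW to sham. Against sham, 2 collagens were higher and 8 were lower in vehicle, out of 39. Across all compared genes 8.66% were higher and 14.2% were lower in vehicle, and the collagen shares were 5.13% and 20.5%. With plain CPM in place of TMM scaling, 1 collagen was higher and 10 were lower in vehicle. Plain CPM also put 5.72% of all compared genes higher and 18.2% lower in vehicle. The median log2 ratio of vehicle to sham was -0.08 over the collagens and 0.01 over all compared genes. Against vehicle, 3 collagens were higher and 1 was lower in AGNHW, where 4.01% of all compared genes were higher and 2.56% were lower. The median log2 ratio of AGNHW to vehicle was 0.05 over the collagens and 0.00 over all compared genes. Against sham, 0 collagens were higher and 5 were lower in AGNHW, where 3.32% of all compared genes were higher and 5.47% were lower. The 3 comparisons share libraries, so they are not independent of one another. In all, 26 of the 39 compared collagens passed in no comparison.

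**Figure D2:**
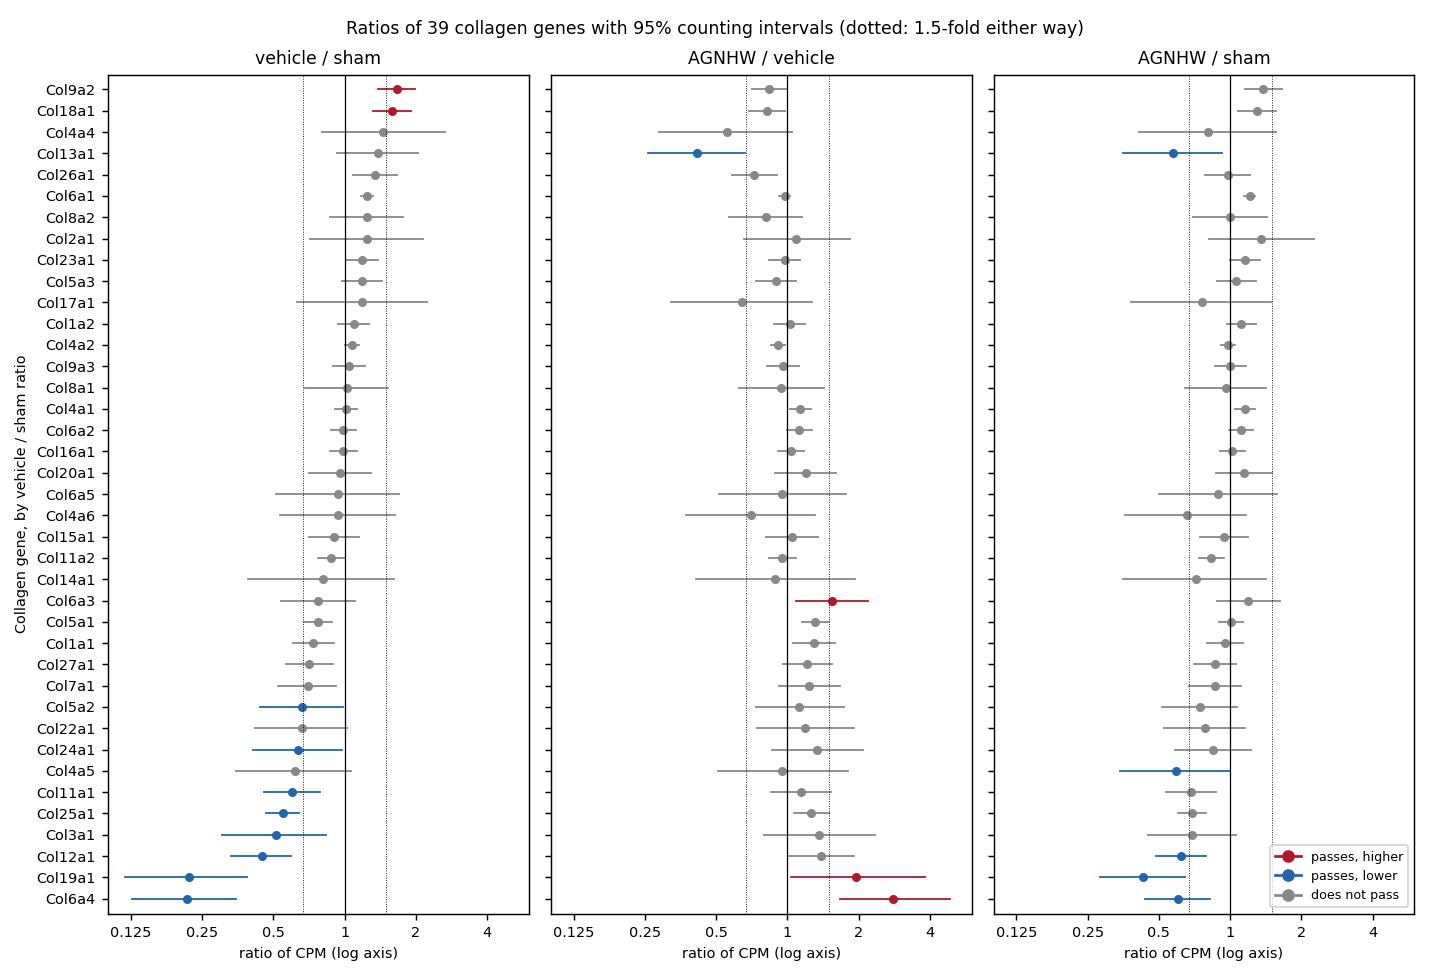
Ratio of CPM between libraries for the 39 compared collagens, with 95% counting intervals on log axes, in panels by comparison and in the order of the vehicle to sham ratio. The 8 members called lower in vehicle than in sham include Col6a4 and Col19a1, which lie far from the rest, while most members lie within a factor of 1.5 in every panel.

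The fibrillar collagens had a lower summed level in vehicle than in AGNHW or sham. Their sum was 134 CPM in AGNHW, 121 CPM in vehicle and 143 CPM in sham, so that the vehicle sum was 0.847 times the sham sum (0.798 to 0.899) and the AGNHW sum was 1.10 times the vehicle sum (1.04 to 1.17). Of the 11 fibrillar genes, 4 were lower in vehicle than in sham and 0 were higher, and 0 passed in either AGNHW comparison. Across all compared genes, 14.2% were lower and 8.66% were higher in vehicle than in sham. In AGNHW, 4.01% were higher and 2.56% lower than in vehicle, and 3.32% higher and 5.47% lower than in sham. After the correction for transcript length and GC content described below, 3 of the 11 were lower in vehicle than in sham, against 7.52% of all compared genes. Of the 4, only Col3a1 kept its call. Col3a1, the chain of the fine reticular fibres of vessel walls, had 39 counts in AGNHW, 24 in vehicle and 58 in sham, and was 1.95-fold lower in vehicle than in sham (1.19 to 3.29). Col11a1, a chain of the thin fibrils best known from cartilage, had 6.30 CPM in AGNHW, 5.52 CPM in vehicle and 9.19 CPM in sham, and was 1.66-fold lower in vehicle than in sham (1.28 to 2.19). Col24a1, a fibrillar chain studied mainly in developing bone, had 56 counts in AGNHW, 35 in vehicle and 68 in sham, and was 1.57-fold lower in vehicle than in sham (1.03 to 2.43). Vehicle was the lowest library for each of these genes, and AGNHW lay between vehicle and sham. Col5a2, which together with Col5a1 forms the collagen V that starts fibrils of collagen I, had 54 counts in AGNHW, 40 in vehicle and 75 in sham, and was 1.52-fold lower in vehicle than in sham (1.02 to 2.28). The lower ends of the intervals for Col24a1 and Col5a2 lay close to 1, so these calls rest on few counts.

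The abundant fibrillar genes passed in no comparison. Col5a1 had 31.7 CPM in AGNHW, 24.2 CPM in vehicle and 31.4 CPM in sham, which gave a vehicle to sham ratio of 0.772 (0.676 to 0.880) and an AGNHW to vehicle ratio of 1.31 (1.15 to 1.5). Col11a2, the partner chain of Col11a1, had 27.8 CPM in AGNHW, 29.3 CPM in vehicle and 33.4 CPM in sham. Col1a1 and Col1a2 encode the chains of collagen I, the main collagen of skin, bone and fibrous scar. Col1a1 had 13.6 CPM in AGNHW, 10.5 CPM in vehicle and 14.2 CPM in sham, a vehicle to sham ratio of 0.739 (0.603 to 0.902). Col1a2 had 21.6 CPM in AGNHW, 21.2 CPM in vehicle and 19.4 CPM in sham, a vehicle to sham ratio of 1.09 (0.937 to 1.27). Of these 4 genes, Col5a1 had the ratio farthest from 1 in AGNHW against vehicle, and Col1a1 in vehicle against sham.

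Collagen IV, which makes up much of the basement membrane around brain capillaries, passed in neither of its main chains. Summed over 6 genes it had 147 CPM in AGNHW, 151 CPM in vehicle and 144 CPM in sham. Col4a2 had 94.0 CPM in AGNHW, 103 CPM in vehicle and 95.9 CPM in sham, with a vehicle to sham ratio of 1.07 (1.0 to 1.15). Col4a1 had 48.5 CPM in AGNHW, 42.7 CPM in vehicle and 42.1 CPM in sham, with an AGNHW to vehicle ratio of 1.13 (1.02 to 1.26). The other chains were rare, at 42 counts or fewer in every library. Among them Col4a5 had 24 counts in AGNHW, 21 in vehicle and 42 in sham, and was 1.70-fold lower in AGNHW than in sham (1.01 to 2.93). Its interval for vehicle against sham included 1, at a ratio of 0.619 (0.348 to 1.07).

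Collagen VI had the largest summed level of any class and held the member with the largest difference. Its sum was 182 CPM in AGNHW, 179 CPM in vehicle and 157 CPM in sham, so that the vehicle sum was 1.14 times the sham sum (1.08 to 1.20) and the AGNHW sum was 1.16 times the sham sum (1.10 to 1.22). Most of that came from Col6a1, which had 137 CPM in AGNHW, 141 CPM in vehicle and 114 CPM in sham. Its ratio was 1.24 for vehicle to sham (1.17 to 1.32) and 1.21 for AGNHW to sham (1.14 to 1.28), under the 1.5-fold limit. After the correction for transcript length and GC content described below, these Col6a1 ratios were 1.09 and 1.11. Col6a2, which assembles with Col6a1, had 34.3 CPM in AGNHW, 30.6 CPM in vehicle and 31.0 CPM in sham. Col6a3 encodes the long chain that completes the classical collagen VI molecule. It had 96 counts in AGNHW, 52 in vehicle and 83 in sham, and was 1.54-fold higher in AGNHW than in vehicle (1.09 to 2.2).

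Col6a4 encodes a mouse chain that can take the place of the Col6a3 product. It had 67 counts in AGNHW, 20 in vehicle and 115 in sham, or 3.67 CPM in AGNHW, 1.31 CPM in vehicle and 6.11 CPM in sham. Vehicle was lowest and sham highest, and the intervals of the 3 pairwise ratios all excluded 1. Col6a4 was 4.65-fold lower in vehicle than in sham (2.87 to 7.89) and 1.67-fold lower in AGNHW than in sham (1.22 to 2.29). It was 2.79-fold higher in AGNHW than in vehicle (1.67 to 4.85). Col6a5, like Col6a4 on chromosome 9, had 25 counts in AGNHW, 22 in vehicle and 29 in sham, with no call. In the GENCODE M21 annotation of GRCm38, 162 exonic bases of Col6a4, or 1.90% of them, are shared with the opposite-strand gene Gm47575 and 127, or 1.49%, with the opposite-strand gene Gm36993, and the labels do not say whether the counting used strand.

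**Figure D3:**
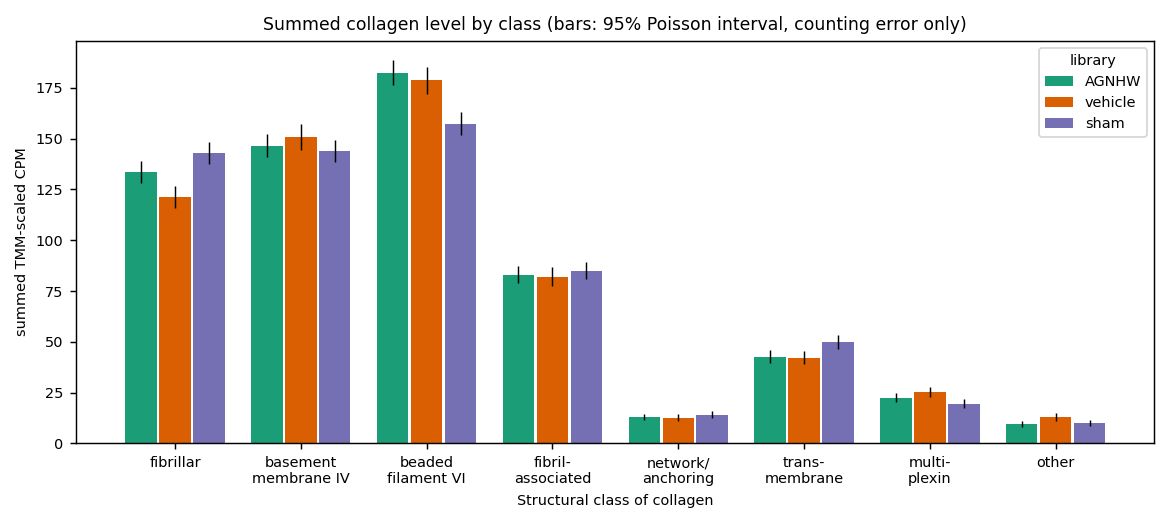
Summed TMM-scaled CPM of each structural class of collagen in the AGNHW, vehicle and sham libraries, with 95% Poisson intervals for counting error. The fibrillar sum was lowest in vehicle at 121 CPM, while the collagen VI sum was higher in AGNHW and vehicle, at 182 and 179 CPM, than in sham, at 157 CPM.

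Among the fibril-associated collagens, members differed in both directions around an even sum. The 9 genes together had 83.1 CPM in AGNHW, 82.0 CPM in vehicle and 85.0 CPM in sham, and of the 8 compared, 1 was higher and 2 were lower in vehicle than in sham. Across all compared genes, 8.66% were higher and 14.2% were lower. Col19a1, which in mice is made by some neurons and takes part in forming inhibitory synapses, had 35 counts in AGNHW, 15 in vehicle and 84 in sham. Vehicle was lowest and sham highest. It was 4.53-fold lower in vehicle than in sham (2.59 to 8.44), 2.33-fold lower in AGNHW than in sham (1.55 to 3.56) and 1.94-fold higher in AGNHW than in vehicle (1.03 to 3.83).

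Col12a1, which binds collagen I fibrils in dense connective tissue, had 110 counts in AGNHW, 66 in vehicle and 183 in sham. It was 2.24-fold lower in vehicle than in sham (1.68 to 3.02) and 1.61-fold lower in AGNHW than in sham (1.27 to 2.06). The AGNHW to vehicle ratio was 1.39 (1.01 to 1.91). Col6a4, Col19a1 and Col12a1 were the 3 collagens lower than sham in both the vehicle and the AGNHW library, 2 comparisons that use the same sham library.

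Col9a2, a chain of the collagen IX that decorates cartilage fibrils, was the member with the largest ratio among those higher in vehicle. It had 16.2 CPM in AGNHW, 19.4 CPM in vehicle and 11.7 CPM in sham, and was 1.66-fold higher in vehicle than in sham (1.39 to 1.98). Its partner Col9a3 had 19.4 CPM in AGNHW, 20.2 CPM in vehicle and 19.3 CPM in sham. Col16a1, a widely expressed fibril-associated chain and the most abundant of the class, had 29.3 CPM in AGNHW, 28.3 CPM in vehicle and 28.7 CPM in sham. Neither Col9a3 nor Col16a1 passed in any comparison.

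The transmembrane collagens are anchored in the cell membrane and can be shed. Their sum was 42.7 CPM in AGNHW, 42.1 CPM in vehicle and 49.8 CPM in sham, so that the vehicle sum was 0.845 times the sham sum (0.763 to 0.936). Col25a1, a neuronal collagen whose shed form was found in amyloid plaques of human brain, had 18.9 CPM in AGNHW, 15.1 CPM in vehicle and 27.5 CPM in sham. It was 1.82-fold lower in vehicle than in sham (1.56 to 2.14), and its AGNHW to sham ratio of 0.690 (0.60 to 0.792) did not reach the 1.5-fold limit. Its AGNHW to vehicle ratio was 1.26 (1.06 to 1.49). Of the 10 members with a mean of at least 20 CPM, a level set after the values were seen, Col25a1 was the only one to pass for vehicle against sham, where 17.7% of all genes of that level passed.

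Col13a1 was the member called lower in AGNHW than in vehicle. It is a transmembrane collagen of cell contacts, with a known part in the neuromuscular junction. It had 29 counts in AGNHW, 58 in vehicle and 52 in sham, and was 2.40-fold lower in AGNHW than in vehicle (1.51 to 3.89) and 1.74-fold lower in AGNHW than in sham (1.08 to 2.84). Its vehicle to sham ratio was 1.38 (0.933 to 2.05), with an interval that included 1. Col23a1 had 21.2 CPM in AGNHW, 21.8 CPM in vehicle and 18.4 CPM in sham, with no call.

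The multiplexins, basement membrane collagens that carry long sugar chains, had 22.4 CPM in AGNHW, 25.2 CPM in vehicle and 19.6 CPM in sham. Col18a1, the source of the vessel inhibitor endostatin, had 14.5 CPM in AGNHW, 17.6 CPM in vehicle and 11.1 CPM in sham, and was 1.59-fold higher in vehicle than in sham (1.32 to 1.91). Col15a1 had 7.94 CPM in AGNHW, 7.63 CPM in vehicle and 8.45 CPM in sham. Network-forming and anchoring collagens were scarce, with a sum of 13.0 CPM in AGNHW, 12.8 CPM in vehicle and 14.1 CPM in sham. In that class Col7a1, the chain of anchoring fibrils in skin, had 119 counts in AGNHW, 80 in vehicle and 142 in sham, a vehicle to sham ratio of 0.697 (0.523 to 0.923), and Col8a2, a chain of short-chain sheet collagen known from the cornea, had 65 counts in AGNHW, 67 in vehicle and 67 in sham. Col26a1, which fits no main class, had 8.93 CPM in AGNHW, 12.3 CPM in vehicle and 9.14 CPM in sham, a vehicle to sham ratio of 1.35 (1.09 to 1.66). Col28a1, the other such gene, had 8 counts in AGNHW, 8 in vehicle and 20 in sham and was below the level compared.

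For chains that assemble into one molecule, some ratios of transcript level lay far from 1, and some differed between libraries by more than counting error. Levels were compared between chains as CPM per kilobase of the longest transcript. Col1a1 had 0.566 times the per-length level of Col1a2 in AGNHW (0.481 to 0.665), 0.448 times in vehicle (0.368 to 0.543) and 0.662 times in sham (0.563 to 0.777). The vehicle and sham intervals of this chain ratio did not overlap. Col4a1 had 0.503 times the per-length level of Col4a2 in AGNHW (0.463 to 0.546), 0.406 times in vehicle (0.370 to 0.445) and 0.428 times in sham (0.393 to 0.466). Here the AGNHW and vehicle intervals did not overlap. Col9a2 had 0.868 times the per-length level of Col9a3 in AGNHW (0.741 to 1.02), 1.0 times in vehicle (0.850 to 1.18) and 0.630 times in sham (0.530 to 0.746), and the vehicle and sham intervals did not overlap. Col9a1, also a chain of collagen IX, had only 10 counts in AGNHW, 4 in vehicle and 18 in sham. Col9a2 exceeded Col9a1 38.7-fold per length in AGNHW (20.7 to 81.5), 96.7-fold in vehicle (37.4 to 357) and 16.0-fold in sham (9.91 to 27.5). Col6a1 exceeded Col6a2 4.79-fold per length in AGNHW (4.39 to 5.24), 5.52-fold in vehicle (4.99 to 6.12) and 4.40-fold in sham (4.01 to 4.83). Against Col6a3 the excess of Col6a1 was 64.4-fold in AGNHW (52.5 to 79.8), 102-fold in vehicle (77.4 to 137) and 63.6-fold in sham (51.1 to 80.2).

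**Figure D4:**
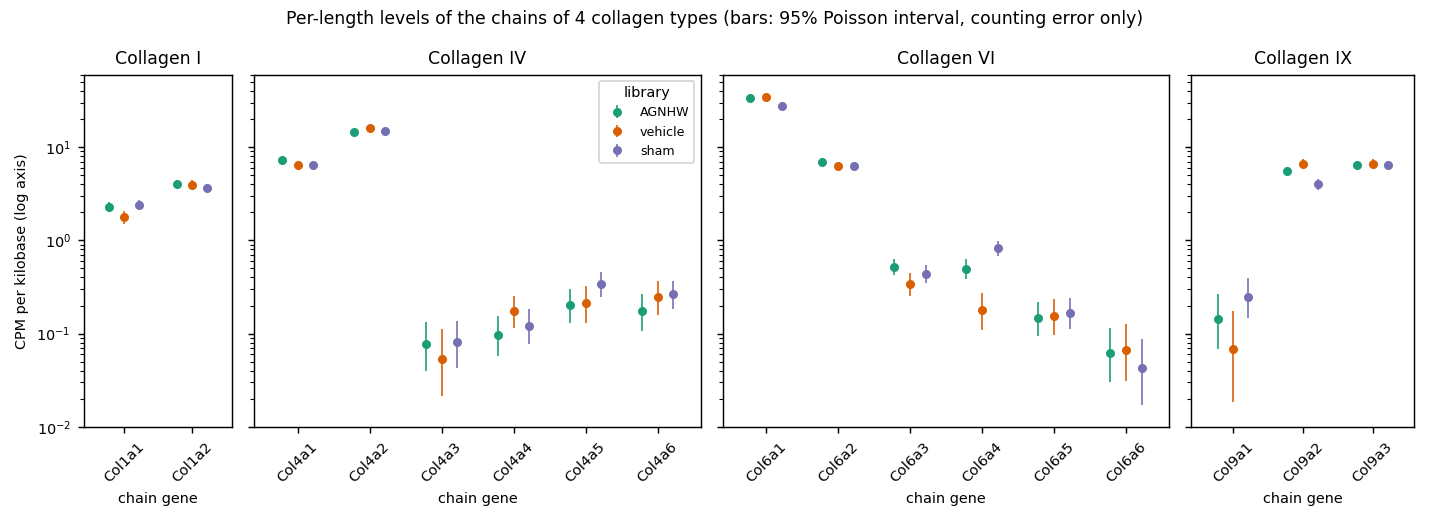
CPM per kilobase of longest transcript (log axis) for the chains of collagens I, IV, VI and IX in the AGNHW, vehicle and sham libraries, with 95% Poisson intervals for counting error. Col6a1 exceeds the other collagen VI chains in all 3 libraries, and Col6a4 shows the largest spread between libraries, with 20 counts in vehicle and 115 in sham.

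Transcript length and GC content went together with the vehicle to sham ratio, in collagens as in all genes. The 39 compared collagens had longest transcripts of 6.05 kb at the median, against 3.30 kb for all 15234 compared genes with a length, and GC contents of 56.1% against 50%. Over the 39 members, Spearman's rho of the log2 ratio of vehicle to sham was 0.557 with GC content and -0.570 with length, and over all compared genes it was 0.543 and -0.472. These correlations are across genes of the same pair of libraries and describe those libraries. The 8 members lower in vehicle than in sham had GC contents of 45.9% to 54.0%, and the 2 higher in vehicle had 60.8% and 62.7%. A trend over both properties, fitted on all compared genes, accounted for 33.8% of the variance in vehicle to sham log2 ratios. For AGNHW to vehicle it accounted for 15.9%, and for AGNHW to sham 21.7%.

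**Figure D5:**
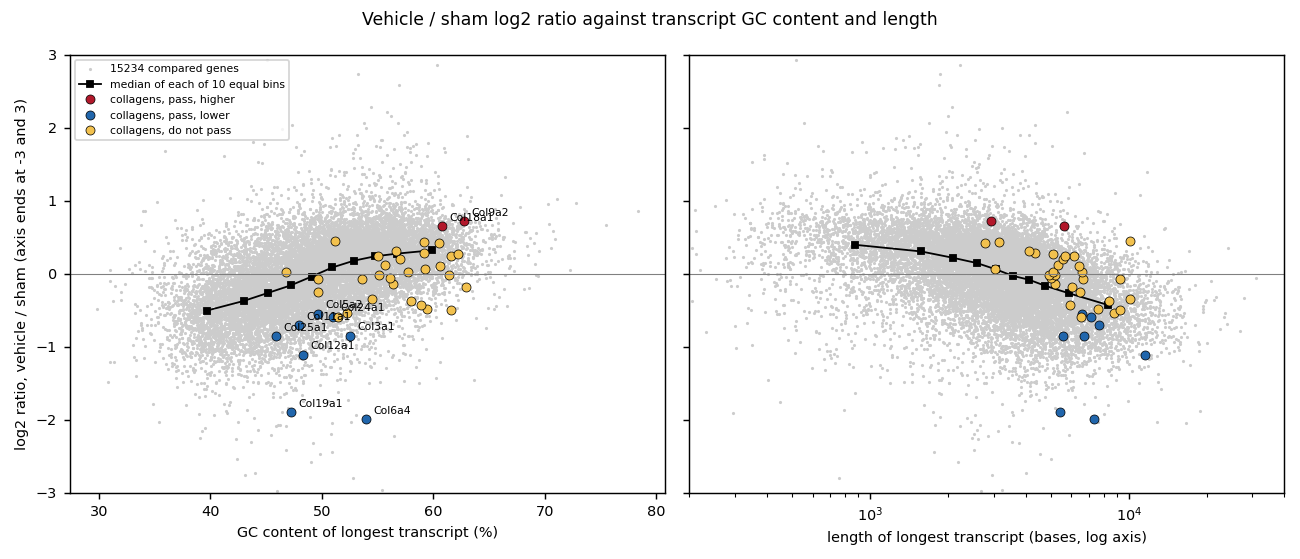
Log2 ratio of vehicle to sham for each compared gene against the GC content and, on a log axis, the length of its longest transcript, with the median of equal bins as a line and collagens as large points (genes beyond the ends of the vertical axis are not drawn). Col9a2 and Col18a1, called higher, lie at the GC-rich end, the collagens called lower lie at 54.0% GC or less, and Col6a4 and Col19a1 lie far below the line of medians.

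After this trend was removed, 0 collagens were higher and 7 were lower in vehicle than in sham, where 4.4% and 7.52% of all compared genes passed. Col6a4, Col19a1, Col12a1 and Col3a1 were called lower with and without the correction, with corrected log2 ratios of vehicle to sham of -1.93 for Col6a4, -1.67 for Col19a1, -0.66 for Col12a1 and -0.82 for Col3a1. Col25a1, Col11a1, Col24a1 and Col5a2 were no longer called, and neither were Col9a2 and Col18a1, at corrected log2 ratios of 0.29 and 0.42. Col1a1, Col7a1 and Col27a1, a fibrillar chain, were called lower only after the correction, at corrected log2 ratios of -0.59, -0.61 and -0.59. For AGNHW against vehicle, the corrected calls were Col6a4 as higher and Col13a1 and Col4a4 as lower, where 3.07% of all compared genes were higher and 1.75% were lower. For AGNHW against sham they were Col6a4, Col19a1 and Col13a1 as lower, where 2.57% of all compared genes were higher and 3.35% were lower.

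Promoter sequence was set beside the members that were lower together in vehicle. RefSeq windows on GRCm38.p6, from 250 bases before to 50 bases after each gene's start, were found for 34 of the 43 collagens, in 37 windows. Motifs and GC content were read in the 250 bases before the start. CCAAT, on either strand, was in 13 of the 37 collagen windows and in 33.8% of the 32851 windows of all genes. TATAAA, on either strand, was in 4 of the 37 and in 12.4% of all windows. Median GC content was 59.2% in the collagen windows and 52.4% in all. Of the 8 members lower in vehicle, 5 had an upstream stretch of at least 200 bases free of annotated exons, and 4 of these stretches are shown: the 3 that hold a motif, and that of Col19a1, which had the largest vehicle to sham difference of the 5. Capitals mark the motif (CCAAT, or ATTGG where it lies on the other strand, or TATAAA). The stretch of Col3a1 lies at chr1:45311288-45311537 on the plus strand, that of Col25a1 at chr3:130180595-130180844 on the plus strand, that of Col11a1 at chr3:114030290-114030539 on the plus strand and that of Col19a1 at chr1:24587473-24587687 on the minus strand.
Col3a1: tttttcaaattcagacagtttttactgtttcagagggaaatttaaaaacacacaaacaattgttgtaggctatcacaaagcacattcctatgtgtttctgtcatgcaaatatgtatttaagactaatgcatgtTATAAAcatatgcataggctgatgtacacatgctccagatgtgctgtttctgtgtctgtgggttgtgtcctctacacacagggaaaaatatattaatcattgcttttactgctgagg
Col25a1: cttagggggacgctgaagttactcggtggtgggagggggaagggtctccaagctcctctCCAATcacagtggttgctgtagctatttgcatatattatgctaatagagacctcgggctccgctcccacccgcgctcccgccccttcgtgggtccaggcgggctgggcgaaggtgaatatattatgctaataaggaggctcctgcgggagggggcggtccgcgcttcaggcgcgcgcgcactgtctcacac
Col11a1: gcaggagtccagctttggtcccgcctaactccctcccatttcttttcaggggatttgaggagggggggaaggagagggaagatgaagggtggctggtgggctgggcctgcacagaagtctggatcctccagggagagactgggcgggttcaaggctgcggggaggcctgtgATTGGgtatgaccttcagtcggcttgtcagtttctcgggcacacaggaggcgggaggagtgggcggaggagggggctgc
Col19a1: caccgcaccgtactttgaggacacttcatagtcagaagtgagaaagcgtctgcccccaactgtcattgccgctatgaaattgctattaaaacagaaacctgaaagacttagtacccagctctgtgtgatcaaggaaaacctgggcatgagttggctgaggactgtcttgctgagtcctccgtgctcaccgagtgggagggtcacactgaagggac
The Col3a1 stretch has a GC content of 35.2% and that of Col11a1 has 62.4%. A match is a run of letters, and its absence from the Col19a1 stretch says only that neither run occurs there.

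Among the genes whose products process collagen, a pair of related proteases differed in opposite directions in vehicle against sham. Of 26 counted genes for modifying, folding, trimming and cross-linking collagen chains, 24 were compared, and 1 was higher and 3 were lower in vehicle than in sham, where 8.66% of all compared genes were higher and 14.2% were lower. The median log2 ratio of the list was 0.12, and -0.02 with the length and GC trend removed. Adamts3, a protease that trims the amino ends of fibrillar procollagens, had 97 counts in AGNHW, 20 in vehicle and 68 in sham. Vehicle was the lowest, 2.75-fold lower than sham (1.65 to 4.78), and AGNHW was 4.04-fold higher than vehicle (2.48 to 6.90). Adamts14, a related procollagen protease, had the opposite order against sham, with 92 counts in AGNHW, 48 in vehicle and 25 in sham. It was 2.38-fold higher in vehicle than in sham (1.44 to 4.02), 1.60-fold higher in AGNHW than in vehicle (1.11 to 2.31) and 3.79-fold higher in AGNHW than in sham (2.42 to 6.16). Plod2, a lysyl hydroxylase that prepares chains for cross-linking, had 41 counts in AGNHW, 28 in vehicle and 75 in sham and was 2.17-fold lower in vehicle than in sham (1.39 to 3.47). P4ha1, a catalytic subunit of prolyl hydroxylase, had 35.0 CPM in AGNHW, 26.3 CPM in vehicle and 39.5 CPM in sham, and was 1.5-fold lower in vehicle than in sham (1.33 to 1.70). With the length and GC trend removed, P4ha1 was not called, at a corrected log2 ratio of -0.39, and the list had 1 gene higher and 2 lower in vehicle than in sham. The corrected shares of all compared genes were 4.4% higher and 7.52% lower. Serpinh1, the collagen chaperone, had 12.7 CPM in AGNHW, 17.7 CPM in vehicle and 18.7 CPM in sham, with no call. Lox, the founding cross-linking oxidase, had 8 counts in AGNHW, 5 in vehicle and 9 in sham, below the level compared.

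Receptors for collagen included genes lower in vehicle than in both other libraries. Of 8 compared receptor genes, 0 were higher and 2 were lower in vehicle than in sham, where 14.2% of all compared genes were lower. In AGNHW against vehicle 2 were higher and 0 were lower, where 4.01% of all compared genes were higher. Ddr2, a receptor kinase that binds fibrillar collagen, had 130 counts in AGNHW, 56 in vehicle and 167 in sham, 2.41-fold lower in vehicle than in sham (1.77 to 3.32) and 1.93-fold higher in AGNHW than in vehicle (1.40 to 2.69). Lair1, an inhibitory collagen receptor of immune cells, had 133 counts in AGNHW, 63 in vehicle and 146 in sham, 1.87-fold lower in vehicle than in sham (1.38 to 2.56) and 1.76-fold higher in AGNHW than in vehicle (1.29 to 2.41). With the length and GC trend removed, Lair1 was not called in vehicle against sham, at a corrected log2 ratio of -0.38, while Ddr2 was, at -0.71, and both were called higher in AGNHW than in vehicle. After the correction 7.52% of all compared genes were lower in vehicle than in sham, and 3.07% were higher in AGNHW than in vehicle. The abundant receptor kinase Ddr1 had 141 CPM in AGNHW, 134 CPM in vehicle and 128 CPM in sham. Neither Ddr1 nor Itga1, a chain of a collagen-binding integrin, passed in any comparison.

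Of 15 compared basement membrane genes outside the collagen family, 0 were higher and 1 was lower in vehicle than in sham, where 8.66% of all compared genes were higher and 14.2% were lower. It was Nid2, which links the laminin and collagen IV networks, with 42 counts in AGNHW, 20 in vehicle and 49 in sham, a 1.98-fold lower level in vehicle than in sham (1.16 to 3.52). Nid2 was 1.75-fold higher in AGNHW than in vehicle (1.0 to 3.14), an interval whose lower end was just above 1. The related Nid1 had 100 counts in AGNHW, 120 in vehicle and 172 in sham, and was 1.67-fold lower in AGNHW than in sham (1.30 to 2.16). Lama2, a laminin chain, and Hspg2, the perlecan gene, passed in no comparison. Of 16 compared small leucine-rich proteoglycans and fibril partners, 0 were higher and 2 were lower in vehicle than in sham, or 12.5% of them against 14.2% of all compared genes. They were the fibril organiser Lum, with 17 counts in AGNHW, 13 in vehicle and 35 in sham, and the matricellular gene Postn, with 34 counts in AGNHW, 19 in vehicle and 44 in sham. With the length and GC trend removed, 0 of the 16 were called in vehicle against sham, at corrected log2 ratios of -0.71 for Lum and -0.03 for Postn, while the call of Nid2 as lower remained. The corrected shares of all compared genes were 4.4% higher and 7.52% lower in vehicle. Sparc, which encodes a collagen-binding protein, had 772 CPM in AGNHW, 833 CPM in vehicle and 566 CPM in sham, a vehicle to sham ratio of 1.47 (1.43 to 1.51), just under the limit.

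TGF-beta is a growth factor known to act on collagen-producing cells. Of 13 compared genes of its signalling, 0 were higher and 4 were lower in vehicle than in sham, where 14.2% of all compared genes were lower, and the median log2 ratio was -0.39. In AGNHW against vehicle 3 were higher and 1 was lower, where 4.01% of all compared genes were higher and 2.56% were lower. Tgfbr1, a receptor, had 9.53 CPM in AGNHW, 6.25 CPM in vehicle and 13.9 CPM in sham, 2.23-fold lower in vehicle than in sham (1.76 to 2.85) and 1.53-fold higher in AGNHW than in vehicle (1.18 to 1.98). Smad4, the shared signal carrier, had 19.0 CPM in AGNHW, 13.7 CPM in vehicle and 25.4 CPM in sham, and was 1.85-fold lower in vehicle than in sham (1.57 to 2.19). Smad7, a feedback inhibitor, had 22.1 CPM in AGNHW, 14.1 CPM in vehicle and 25.6 CPM in sham, and was 1.82-fold lower in vehicle than in sham (1.54 to 2.14). With the length and GC trend removed, 0 genes of the list were higher and 4 were lower in vehicle than in sham, at a median log2 ratio of -0.12, and 1 was higher and 1 was lower in AGNHW than in vehicle. The corrected shares of all compared genes were 4.4% higher and 7.52% lower in vehicle than in sham. In AGNHW against vehicle they were 3.07% higher and 1.75% lower. After the correction Tgfbr1 was not called in AGNHW against vehicle.

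Markers of the cells that make collagen were present in every library and did not fall together in vehicle. In bulk tissue, fewer cells of a type and less RNA per cell cannot be told apart. The 16 fibroblast markers summed to 210 CPM in AGNHW, 200 CPM in vehicle and 172 CPM in sham, with 2 higher and 2 lower in vehicle than in sham. Lum, Dcn, Ogn and Fmod are also on the list of small leucine-rich proteoglycans and fibril partners. The 13 endothelial markers summed to 342 CPM in AGNHW, 324 CPM in vehicle and 332 CPM in sham, with 1 higher and 2 lower in vehicle than in sham. The 11 counted mural cell markers summed to 315 CPM in AGNHW, 298 CPM in vehicle and 277 CPM in sham, with 1 higher and 1 lower in vehicle than in sham. Across all compared genes, 8.66% were higher and 14.2% were lower in vehicle than in sham. None of the markers on these lists was at 0 in any library. With the length and GC trend removed, each of the 3 lists had 1 marker higher and 1 lower in vehicle than in sham. The shares of all compared genes were then 4.4% higher and 7.52% lower. The mural cell marker called lower was not the same gene with and without the correction, since Abcc9, described below, was called only without it. Neuron markers summed to 6589 CPM in AGNHW, 6923 CPM in vehicle and 6772 CPM in sham.

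The vehicle library stood apart in markers of pituitary, red cells and choroid plexus. The 8 counted pituitary markers summed to 4.60 CPM in AGNHW, 3748 CPM in vehicle and 4.52 CPM in sham, with Cga and Pitx1 at 0 in AGNHW and Gh, Prl and Ghrhr at 0 in sham. The 5 counted red cell markers summed to 65.1 CPM in AGNHW, 163 CPM in vehicle and 52.8 CPM in sham, and the 10 choroid plexus markers to 668 CPM in AGNHW, 977 CPM in vehicle and 552 CPM in sham. The 9 counted bone and cartilage markers, none at 0, summed to 28.6 CPM in AGNHW, 24.5 CPM in vehicle and 26.1 CPM in sham, and the 7 counted skeletal muscle markers to 90.4 CPM in AGNHW, 102 CPM in vehicle and 65.4 CPM in sham. The pituitary, red cell and choroid plexus sums were highest in vehicle. The bone and cartilage sum was lowest there, and the muscle sum was lowest in sham. Of 6 compared bone and cartilage markers, 1 was higher and 0 were lower in vehicle than in sham. Of 4 compared muscle markers, 3 were higher and 0 were lower. Across all compared genes, 8.66% were higher and 14.2% were lower. With the length and GC trend removed, the bone and cartilage list had 1 higher and 1 lower, and the muscle list 1 higher and 0 lower. The corrected shares of all compared genes were 4.4% and 7.52%. The part of these tissues in the collagen differences was not tested.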

How the data were processed

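The deposited values were whole-number read counts per gene for 3 mouse brain libraries, made by the authors. The submitters' processing notes name Bowtie2 2.2.3, TopHat2 2.0.12, HTSeq 0.6.0 and the mm9 build. The sources used here do not give their order and settings, the annotation or the strand setting. The lowest sum of counts over the 3 libraries was 21, so genes with fewer are not analysed here. Groups were taken from the sample titles.

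Counts were scaled with TMM factors (edgeR 4.0.16 in R 4.3.3) of 1.00 for AGNHW, 0.968 for vehicle and 1.03 for sham. Ratios have exact conditional binomial 95% intervals and sums of counts have exact Poisson intervals. Both cover counting error only and hold no spread between mice. They take each read as independent, although reads that carry no molecular identifier may be copies of one molecule. Medians use log2 ratios with a prior count of 5. The size rule was a ratio of at least 1.5 either way, an interval without 1 and a mean of at least 1 CPM, and its calls were tested on simulated data. Lengths and GC contents are of the longest GENCODE M21 transcript (GRCm38), found for all 43 collagens, and the trend was fitted on 15234 genes. Promoter windows are RefSeq's. Figures were drawn with matplotlib 3.10.9, and tables were handled in Python 3.11.15 (pandas 2.3.3, numpy 2.4.6) with intervals from scipy 1.17.1.

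The members and gene lists were chosen with earlier results of these data known. Values were given for each member that passed in any comparison and for the 2 most abundant members of each class. Of each other list, the 3 genes of largest vehicle to sham difference and a fixed set of well-known genes could be named. Partner chains and the other genes singled out were added after their values were seen. Alternatives were plain CPM, DESeq2 1.42.0 size factors, other filters, a prior count of 1, a fold of 2 and removal of the length and GC trend. Col10a1 and Col21a1 were on the class lists and were not analysed here.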

Additional observations from a re-analysis of the deposited data

How the results depend on the processing

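Each group had 1 library, so no replicate could be left out and no spread between mice is known. No paired analysis was possible because the groups share no replicates. For vehicle against sham, the collagens higher numbered 2, and 1 with plain CPM, 0 with the length and GC trend removed and 0 at a fold of 2, while those lower numbered 8, and 3 with a mean of at least 5 CPM and 3 at a fold of 2. Of all compared genes, 8.66% were higher, and 5.72% with plain CPM, 4.4% with the trend removed and 1.97% at a fold of 2. The share lower was 14.2%, and 13.4% at 5 CPM, where 22 collagens were compared, and 4.57% at a fold of 2. For AGNHW against vehicle, the collagens higher numbered 3, and 0 at 5 CPM, 1 with the trend removed and 1 at a fold of 2, while those lower numbered 1, and 0 at 5 CPM and 2 with the trend removed. The share of all compared genes higher was 4.01%, and 2.48% at 5 CPM, 3.07% with the trend removed and 1.12% at a fold of 2. The share lower was 2.56%, and 1.06% at 5 CPM and 1.75% with the trend removed. For AGNHW against sham, the collagens lower numbered 5, and 1 at 5 CPM, 3 with the trend removed and 1 at a fold of 2. The share of all compared genes lower was 5.47%, and 3.73% at 5 CPM, 3.35% with the trend removed and 1.23% at a fold of 2. Fewer genes tested and a stricter limit account for the counts at 5 CPM and at a fold of 2 by construction, and for the others the cause was not tested. DESeq2 size factors gave the main counts in all 3 comparisons. The median log2 ratio over the collagens was between -0.19 and -0.02 for vehicle to sham, between 0.05 and 0.10 for AGNHW to vehicle, and between -0.17 and 0.01 for AGNHW to sham. The last of these turned from -0.09 to 0.01 at 5 CPM. Over all compared genes, plain CPM gave 890 higher and 2836 lower in vehicle than in sham, against 1348 and 2207 with TMM. It gave 808 higher and 309 lower in AGNHW than in vehicle, against 624 and 398. Removing the trend gave 670 higher and 1145 lower in vehicle than in sham. Depth limits the rare members: calls for genes under about 50 counts have wide intervals.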

Other observations

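The marker lists of fibroblasts, endothelial cells and mural cells each held a gene called higher and a gene called lower in vehicle than in sham. Mgp, an inhibitor of calcification made by fibroblasts and vessel cells, had 25.2 CPM in AGNHW, 32.3 CPM in vehicle and 15.4 CPM in sham, 2.10-fold higher in vehicle than in sham (95% counting interval 1.81 to 2.44). Foxc1, a transcription factor of the developing meninges, had 6.95 CPM in AGNHW, 4.34 CPM in vehicle and 7.55 CPM in sham, 1.74-fold lower in vehicle than in sham (1.29 to 2.37). Acta2, the smooth muscle actin of arterial walls, had 26.2 CPM in AGNHW, 33.9 CPM in vehicle and 20.1 CPM in sham, 1.68-fold higher in vehicle than in sham (1.47 to 1.92). Abcc9, a potassium channel subunit of pericytes, had 95 counts in AGNHW, 55 in vehicle and 111 in sham, 1.63-fold lower in vehicle than in sham (1.17 to 2.30), a call lost with the length and GC trend removed. Kdr, the main VEGF receptor of endothelium, had 7.78 CPM in AGNHW, 6.18 CPM in vehicle and 10.9 CPM in sham, 1.77-fold lower in vehicle than in sham (1.38 to 2.29), while Pecam1, a junction protein of the same cells, had 25.7 CPM in AGNHW, 28.1 CPM in vehicle and 23.2 CPM in sham, with no call. Of the 13 endothelial markers, 1 was higher and 2 were lower in vehicle than in sham, with ratios from 0.565, for Kdr, to 1.52. Across all compared genes, 8.66% were higher and 14.2% were lower.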
